A study of Mus musculus with 18 samples.

Results

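The transcripts of 7 genes that write or erase methylation on lysine 27 of histone H3 were followed in bone marrow-derived macrophages (BMDMs): the demethylase genes Kdm6a and Kdm6b, the methyltransferase genes Ezh1 and Ezh2, and Suz12, Eed and Jarid2, whose products assemble with EZH1 or EZH2 in Polycomb repressive complex PRC2. They were taken by gene symbol, and all 7 were found among the 24485 genes listed in each library. All BMDMs came from Il10-/- mice on the C57BL/6J background, so cells of every group lacked their own functional IL-10. The mice were male and 12 weeks old, and the cells of 3 mice were used, with 3 libraries in each of 6 groups, 18 in all.

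The groups were unstimulated cells, cells treated with JQ1, a small molecule that blocks the acetyl-lysine binding pockets of BET proteins, cells treated with IL-10, an anti-inflammatory cytokine, and cells stimulated with LPS, a bacterial cell wall component sensed by TLR4, alone, after JQ1 (LPS + JQ1) or after IL-10 (LPS + IL-10). JQ1 was given at 500 nM and IL-10 at 10 ng/mL for 12 hours before 50 ng/mL LPS or buffer was added for 4 hours, so all cells were collected at 16 hours. Libraries were made from total RNA of the bulk culture after ribosomal RNA depletion, and in such samples fewer cells of a type and less RNA per cell cannot be told apart. The comparisons ask what LPS does to these genes, and whether a BET inhibitor or IL-10 changes their level at rest or their response.

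PRC2 adds up to 3 methyl groups to H3K27, a mark of silenced genes that PRC1, a second Polycomb complex, can read. EZH1 and EZH2 are alternative catalytic subunits: EZH2 is the more active enzyme and is typical of dividing cells, whereas EZH1 persists in resting and differentiated cells. SUZ12 holds the complex together, EED binds trimethylated H3K27 and stimulates the enzyme, and JARID2 is an accessory subunit that helps bring the complex to its targets. KDM6A (UTX) and KDM6B (JMJD3) remove the mark, and KDM6B is known as an inflammation-induced demethylase of macrophages, whereas KDM6A is also a subunit of the MLL3/MLL4 complexes that methylate H3K4 at enhancers.

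On the mm9 genome Kdm6a lies at chrX:17739701-17857062, Kdm6b at chr11:69212010-69227177, Ezh1 at chr11:101052429-101087777, Ezh2 at chr6:47480273-47545340, Suz12 at chr11:79806608-79847625, Eed at chr7:97103166-97129493 and Jarid2 at chr13:44824843-45017012. RefSeq promoter windows matched 6 of the 7 genes, Kdm6b being the exception. The 250 bases before the annotated start are shown for Suz12 and Jarid2, which were higher with LPS, and for Ezh2, which was not, on the GRCm38.p6 build, 5′ to 3′ on the strand of the gene. Capitals mark matches to any of 8 motifs searched on both strands, without regard to overlap.
Suz12 chr11:79992856-79993105 (+): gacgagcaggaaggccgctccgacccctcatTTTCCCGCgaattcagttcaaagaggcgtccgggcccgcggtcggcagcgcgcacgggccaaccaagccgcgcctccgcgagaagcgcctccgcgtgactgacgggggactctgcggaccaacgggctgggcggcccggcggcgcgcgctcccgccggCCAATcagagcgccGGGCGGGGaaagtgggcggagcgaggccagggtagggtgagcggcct
Jarid2 chr13:44730524-44730773 (+): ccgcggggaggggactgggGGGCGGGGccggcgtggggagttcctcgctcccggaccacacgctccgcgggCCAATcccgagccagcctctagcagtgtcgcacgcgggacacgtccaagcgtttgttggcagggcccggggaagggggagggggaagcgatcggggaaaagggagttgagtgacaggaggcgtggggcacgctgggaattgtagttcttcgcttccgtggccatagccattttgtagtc
Ezh2 chr6:47595031-47595280 (-): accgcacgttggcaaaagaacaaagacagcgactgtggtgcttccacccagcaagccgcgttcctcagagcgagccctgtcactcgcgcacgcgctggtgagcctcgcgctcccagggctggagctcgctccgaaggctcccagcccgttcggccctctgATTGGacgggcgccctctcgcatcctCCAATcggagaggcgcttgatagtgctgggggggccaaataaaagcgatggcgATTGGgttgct
The CCAAT box (CCAAT) was found 3 times before Ezh2, at 90, 64 and 11 bases before the start, and once each before Suz12 and Jarid2, and 33.8% of all 32851 promoter windows held it. The GC box (GGGCGGGG), held by 16.1% of windows, was found before Suz12, Jarid2 and Kdm6a. The E2F motif (TTTNNCGC, 4.28% of windows) was found only before Suz12 and the E-box (CACGTG, 6.02%) only before Kdm6a among the 7 windows of these 6 genes, of which Jarid2 has 2. The NF-kB (GGGA, any base, then TTTCC, 0.356%), AP-1 (TGANTCA, 6.75%), IRF (GAAA, any 2 bases, then GAAA, 2.98%) and CRE (TGACGTCA, 1.55%) motifs were in none of them. The Jarid2 window that is not shown matched none of the 8 motifs, so the CCAAT and GC boxes of Jarid2 are those of the window shown.

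Total expected counts per library ranged from 6.78e+06 to 2.83e+07, and the 7 genes together drew 1844 to 8628 counts per library. Reads assigned to Il10, the deleted gene, gave 27.1 to 177 normalised counts, and whether they lie in the deleted part was not tested. All 8 macrophage markers were detected, with a summed level of 15522 to 29413 TPM, while the 5 neutrophil markers summed to 0.7 to 10.2 TPM, led by Ngp, with Ly6g at 0 in every library, and the 5 T cell markers summed to at most 8.76 TPM, carried by Cd4. The part of other cells in the results was not tested. Suz12 and Uty, the Y-linked relative of Kdm6a, were highest in replicate 3 among the LPS and among the LPS + IL-10 libraries, and Kdm6b was lowest there. Levels below are normalised counts (expected counts divided by a DESeq2 size factor per library), which compare libraries for 1 gene, or TPM, which corrects for transcript length and is used to compare genes. A gene was called where the DESeq2 Wald test across all genes gave a Benjamini-Hochberg adjusted p under 0.05, and log2 fold changes are given with their standard error (SE). Several comparisons use the same libraries (LPS alone enters 3 of the pairwise comparisons), so they are not independent of one another.

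In unstimulated cells Ezh1 was the most abundant of the 7 by TPM and Kdm6b the least. Ezh1 had 31.2, 32.8 and 31.9 TPM in the 3 libraries, against 6.71, 6.43 and 7.09 TPM for Ezh2 and 3.69, 3.80 and 3.46 TPM for Kdm6b. Eed followed Ezh1 with a mean of 21.6 TPM, whereas the ranges of Jarid2, Suz12 and Kdm6a (means 14.7, 14.1 and 12.2 TPM) overlapped their neighbours in this order. With LPS the order changed at both ends: Kdm6b, with 48.2, 47.9 and 41.1 TPM, stood above the other 6 genes in every library, and Kdm6a, with 3.37, 3.63 and 4.91 TPM, overlapped Ezh2 at the bottom. In LPS + JQ1 cells Jarid2 was highest (mean 33.4 TPM) and Kdm6b stood below Ezh1, Suz12 and Eed, at 12.1, 13.1 and 14.7 TPM.

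LPS changed 6 of the 7 genes, 3 upward and 3 downward, where 63.1% of the 15285 genes tested were called, 30.8% higher and 32.2% lower. The median log2 change was 0.03 over the members and -0.06 over all genes tested. The plot of normalised counts by library shows the size and direction for each gene.

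**Figure D1:**
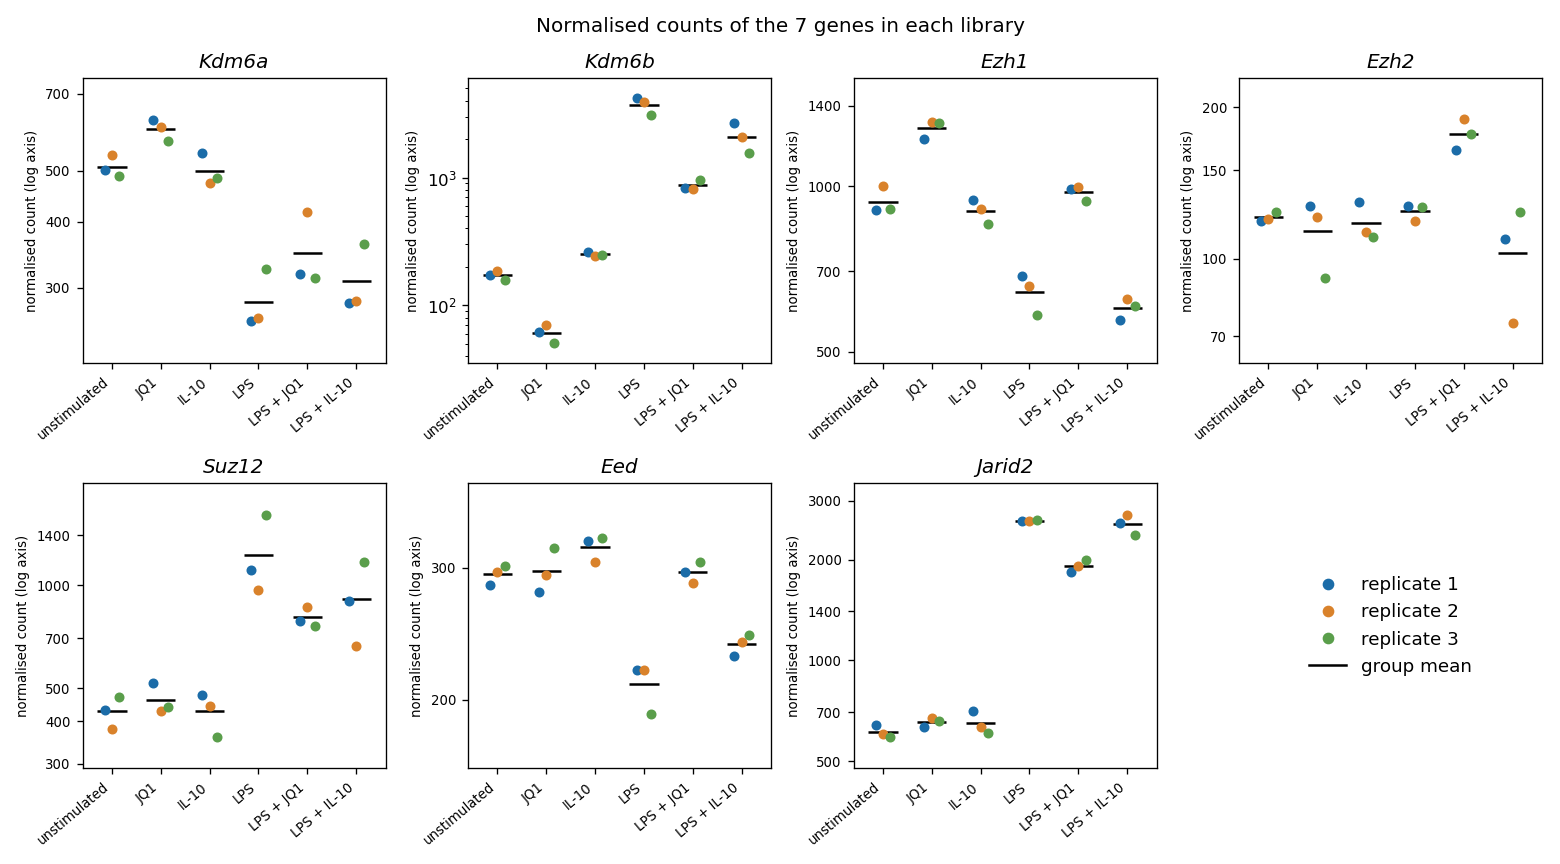
Normalised counts of the 7 genes (log axis, 1 panel per gene) in the 6 groups; points are libraries coloured by replicate number and bars are group means of 3. Kdm6b spans from 50.4 to 4168 normalised counts, Jarid2 and Suz12 are higher in every LPS-stimulated group than at rest, and Ezh2 on this scale stands highest in LPS + JQ1.

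Kdm6b, the inducible H3K27 demethylase, had 172, 186 and 158 normalised counts in unstimulated cells and 4168, 3908 and 3068 after LPS. The groups were far apart, and the gene was 21.7-fold higher with LPS (log2 4.44, SE 0.17, adjusted p = 1.09e-145). Its group means spanned a 61.0-fold range over the study, from JQ1 to LPS. Neighbouring groups in the order LPS, LPS + IL-10, LPS + JQ1, IL-10, unstimulated and JQ1 did not overlap at any step.

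Kdm6a, the constitutive demethylase, moved the other way. It had 501, 536 and 489 normalised counts at rest and 259, 263 and 325 after LPS, with no overlap (log2 -0.84, SE 0.13, adjusted p = 3.58e-10), and the call held in all fits without a replicate or a library (log2 -0.99 to -0.76). Kdm6a shares much of its sequence with Uty, so counts may be divided between them, which was not tested. Expected counts, which take fractions where reads are divided between genes, were whole for Kdm6a in the LPS libraries (183, 254 and 265). At rest they were 649, 317 and 728.82. Uty had 203, 181 and 223 normalised counts at rest and 109, 118 and 243 after LPS, with no call (log2 -0.37, SE 0.28, adjusted p = 0.241). Replicate 3 was the one LPS library in which Uty was not below the unstimulated range, and its change without that library was not computed.

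Within a library, the ratio of Kdm6b to Kdm6a TPM does not depend on how libraries are scaled to each other. It was 0.288 to 0.308 in unstimulated cells and 8.38 to 14.3 after LPS, a 38.8-fold difference with no overlap. The smallest p that an exact two-sided permutation test of 3 against 3 libraries can give is 0.1, which was the value here, so no ratio below can pass a threshold of 0.05.

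Ezh1, the methyltransferase of resting cells, had 904, 999.5 and 908 normalised counts at rest and 686, 660 and 584 with LPS. The groups did not overlap, and the log2 change was -0.54 (SE 0.08, adjusted p = 8.93e-12). Ezh2, the enzyme typical of dividing cells, had 119, 120 and 124 normalised counts at rest and 127, 119 and 126 with LPS, which overlap (log2 0.03, 95% interval -0.29 to 0.36, adjusted p = 0.887). Its direction depended on the scaling: when libraries were scaled to their total counts Ezh2 was lower with LPS (log2 -0.90, adjusted p = 3.52e-07), as it was with limma on log2(TPM + 1) (log2 -0.62, adjusted p = 0.000563), the range over all alternatives being 3.52e-07 to 0.963. Total-count scaling moved the median of 12251 expressed genes from -0.07 to -0.997 and the share of called genes that were higher from 48.6% to 20.2%, so the fall of Ezh2 under it was no larger than that shift. The directions of the other 6 genes held under each scaling, as the plot of fold changes under 3 scalings shows.

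**Figure D2:**
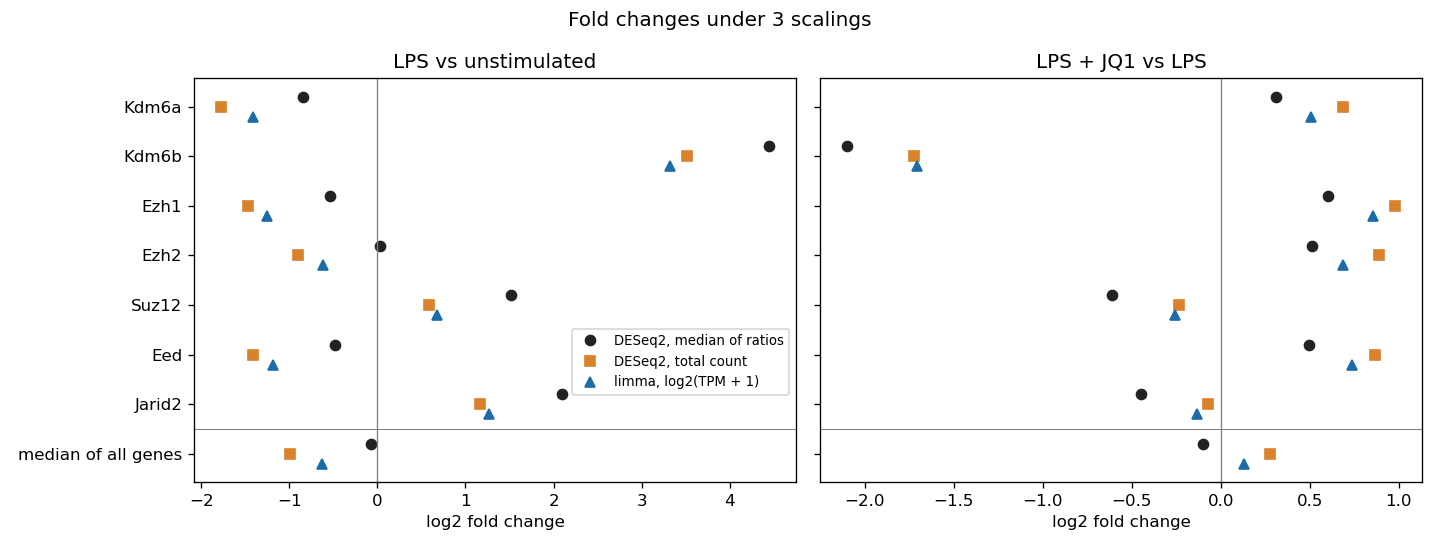
log2 fold change (x axis) of the 7 genes and, in the bottom row, the median of all expressed genes, for LPS against unstimulated (left) and LPS + JQ1 against LPS (right), under median-of-ratios size factors, total-count scaling and limma on log2(TPM + 1). Ezh2 changes sign on the left, from 0.03 to -0.90 and -0.62, and Jarid2 and Suz12 move toward 0 on the right.

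The ratio of Ezh2 to Ezh1 TPM, free of that scaling, ranged from 0.196 to 0.223 at rest and from 0.294 to 0.353 with LPS, with no overlap (log2 difference 0.58, exact permutation p = 0.1). Ezh1 therefore exceeded Ezh2 by 4.74-fold at rest and 3.17-fold with LPS in TPM. Of 14 genes of dividing cells, 11 were lower and 3 higher with LPS, Ccna2 (cyclin A2, log2 -2.53, adjusted p = 6.60e-13) and Mcm2 (a replicative helicase subunit, log2 -2.40, adjusted p = 5.99e-21) among the former and Mki67 (the Ki-67 antigen, log2 2.24, adjusted p = 5.21e-70) among the latter. Their summed level was 505 to 602 TPM at rest, 383 to 491 TPM with LPS, 262 to 299.8 TPM with JQ1 and 295 to 369 TPM in LPS + JQ1. As summed normalised counts it was higher with LPS than at rest, 11857 to 13820 against 7202 to 8423, so the direction of the sum depended on the unit. Mki67 and Pcna, both among the 14 genes, together made up most of each sum. Their mean normalised counts were 1522 and 2825 at rest and 7218 and 4332 with LPS. In TPM, Pcna averaged 362 at rest and 325 with LPS. The sums therefore do not stand for the list, of which 11 genes were lower with LPS. The part of cycling cells in the level of Ezh2 was not tested.

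The core subunits diverged. Suz12, the scaffold, had 432, 379 and 471 normalised counts at rest and 1108, 971 and 1605 with LPS (log2 1.52, SE 0.19, adjusted p = 1.12e-14), with replicate 3 highest and no overlap between groups. Without LPS replicate 3 the log2 change was 1.28, still called, the lowest of the fits without a replicate or a library. Eed, which reads the mark, had 285, 296 and 302 at rest and 219, 219 and 192 with LPS (log2 -0.49, SE 0.10, adjusted p = 6.44e-06), again with no overlap. Jarid2, the accessory subunit, had 639.5, 602 and 591 normalised counts at rest and 2601, 2606 and 2632 with LPS, the tightest of the 7 responses (4.28-fold, log2 2.10, SE 0.07, adjusted p = 3.99e-177). In TPM Suz12 exceeded Eed in every LPS library (18.4 to 33.3 against 8.78 to 9.24 TPM), the reverse of unstimulated cells (11.9 to 16.0 against 20.9 to 22.7 TPM). The transcript lengths that the authors' quantification assigned stayed between 5816 and 5940 bases for Jarid2 and between 4342 and 4373 bases for Suz12 in all libraries.

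Other genes of these pathways also went both ways with LPS. Of 10 tested genes in the list of PRC2 partners, which also holds Uty although UTY is not a PRC2 subunit, 5 were higher and 2 lower (median log2 0.49 against -0.06 over all genes tested), but 3 were higher and 5 lower under total-count scaling. E130012A19Rik (Epop), an elongin-binding partner, was higher (log2 3.55, SE 0.24, adjusted p = 2.52e-50), as was Aebp2, a stabilising partner (log2 3.18, SE 0.09, adjusted p = 5.95e-289), while Phf1, a Tudor-domain partner that binds methylated H3K36, was lower (log2 -2.41, SE 0.16, adjusted p = 8.19e-50). Of 24 PRC1 subunits 8 were higher and 11 lower (median -0.21), against 6 and 16 under total-count scaling (median -1.14). The 3 named by size were chromodomain readers of H3K27 methylation or their relatives: Cbx2 went from 83.3 to 107 normalised counts at rest to 1.2 to 3.1 with LPS, Cbx8 from 69.7 to 93.0 to 1.0 to 4.2, and Cbx6 from 249 to 320 to 7.1 to 18.6. These were lower by log2 -5.60 (adjusted p = 2.85e-16), -5.11 (adjusted p = 3.09e-16) and -4.59 (adjusted p = 9.44e-55), and the LPS level of Cbx2 and Cbx8 is a few counts.

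PR-DUB is the complex that removes ubiquitin from histone H2A. Of its 6 subunits listed, Asxl3 was at 0 in every unstimulated and LPS library, and of the other 5 none was higher and 3 were lower (Foxk1, log2 -1.53; Asxl1, log2 -0.72; Asxl2, log2 -0.71), or all 5 lower under total-count scaling. Of 9 genes of the MLL3/MLL4 complexes, in which KDM6A sits, 3 were higher and 6 lower, led by Pagr1a (log2 -1.27, adjusted p = 1.25e-21) and Paxip1 (log2 -0.64, adjusted p = 5.70e-07), both KDM6A-associated subunits. Kmt2d, a catalytic subunit, was higher (log2 0.57, adjusted p = 5.84e-08) but lower under total-count scaling (log2 -0.35) and in TPM (log2 -0.20), and with total-count scaling all 9 were lower.

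JQ1 alone changed 2 of the 7 genes, where 44.4% of 14006 genes tested were called, 21.3% higher and 23.1% lower. Kdm6b had 62.3, 69.99 and 50.4 normalised counts with JQ1, all below the 158 to 186 of unstimulated cells (2.81-fold lower, log2 -1.49, SE 0.20, adjusted p = 9.85e-13). Ezh1 had 1219, 1309 and 1303 normalised counts, all above the 904 to 999.5 at rest (log2 0.45, SE 0.07, adjusted p = 1.61e-09). Kdm6a, at 623, 604 and 570 normalised counts, also lay above all unstimulated libraries but was not called (log2 0.24, 95% interval -0.00 to 0.48, adjusted p = 0.103). Ezh2, Suz12, Eed and Jarid2 were not called, their log2 changes lying between -0.10 and 0.11, and JQ1 replicate 3 had the lowest Ezh2 (91.6 against 127 and 121).

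Both ratios within a library were lower with JQ1. The Ezh2 to Ezh1 ratio was 0.115 to 0.171, below the 0.196 to 0.223 at rest, and the Kdm6b to Kdm6a ratio was 0.0784 to 0.103, below 0.288 to 0.308, each with no overlap (exact permutation p = 0.1). Total-count scaling moved the median of all expressed genes from 0.00 to -0.17 and the share of called genes that were higher from 48.4% to 26.9%. All 14 genes of dividing cells were lower with JQ1. These are transcript levels: the study reports no effect of JQ1 on cell cycle progression, measured by BrdU incorporation in Il10-/- BMDMs, or on their viability. Among those with a mean of at least 50 normalised counts, Mcm5 (log2 -1.82), Mcm3 (log2 -1.65) and Ccna2 (log2 -1.55) fell most. Aurkb, with a mean of 36.4, fell further (log2 -2.11, adjusted p = 5.46e-13). Of the PRC2 partners listed 2 were higher and 1 lower of 10, Lcorl (log2 0.59, adjusted p = 0.0212) and Lcor (log2 0.52, adjusted p = 0.00129) both losing the call under total-count scaling, where none was higher and 2 were lower. The 1 lower with size factors was Phf19, a Polycomb-like PRC2 partner named after its values were seen because its mean of 41.7 normalised counts was under the minimum for named genes. It had 33.2 to 42.3 normalised counts at rest and 4.58 to 6.92 with JQ1 (log2 -2.61, SE 0.41, adjusted p = 1.14e-09), and was lower under total-count scaling too. No such fall was seen under LPS, where Phf19 had 65.3 to 86.2 normalised counts in LPS + JQ1, overlapping the 42.4 to 76.5 of LPS alone. Of 24 PRC1 subunits 10 were higher and 5 lower, but 4 were higher and 7 lower under total-count scaling; Scmh1 (log2 -1.28), Phc1 (log2 -1.17) and L3mbtl2 (log2 -1.02) were lower under both. None of 5 PR-DUB subunits tested was called, and of 9 MLL3/MLL4 genes 1 was higher (Kmt2c, log2 0.24, not called under total-count scaling) and 2 lower (Ncoa6, log2 -0.44; Pagr1a, log2 -0.29).

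IL-10 alone changed 1 of the 7, where 3.96% of 9211 genes tested were called. Kdm6b had 263, 244 and 248 normalised counts, above the 158 to 186 of unstimulated cells (log2 0.56, SE 0.18, adjusted p = 0.0427). The call was lost with edgeR (adjusted p = 0.131) and without any 1 of the 6 libraries compared, the adjusted p running from 0.00189 to 0.309 over all alternatives. The Kdm6b to Kdm6a ratio, 0.431 to 0.456 with IL-10, lay above 0.288 to 0.308 in every library. The other 6 genes had log2 changes between -0.04 and 0.12 and none was called, although the Eed ranges, 305 to 329 against 285 to 302, did not overlap. Of all genes called 63.0% were higher, and 83.3% with limma on log2(TPM + 1).

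In LPS-stimulated cells JQ1 changed all 7 genes, where 57.3% of 14326 genes tested were called, 24.4% higher and 32.9% lower. Among the members 4 were higher and 3 lower, and the 3 lower ones, Kdm6b, Suz12 and Jarid2, were the 3 that LPS had raised. The LPS libraries enter both comparisons, on opposite sides, so these directions are not independent. Kdm6b had 828, 819 and 958 normalised counts in LPS + JQ1, below the 3068 to 4168 of LPS alone (4.28-fold lower, log2 -2.10, SE 0.16, adjusted p = 6.80e-37) and above the 158 to 186 at rest. It was still 14.3-fold higher than with JQ1 alone (log2 3.84, SE 0.19, adjusted p = 9.53e-88).

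**Figure D3:**
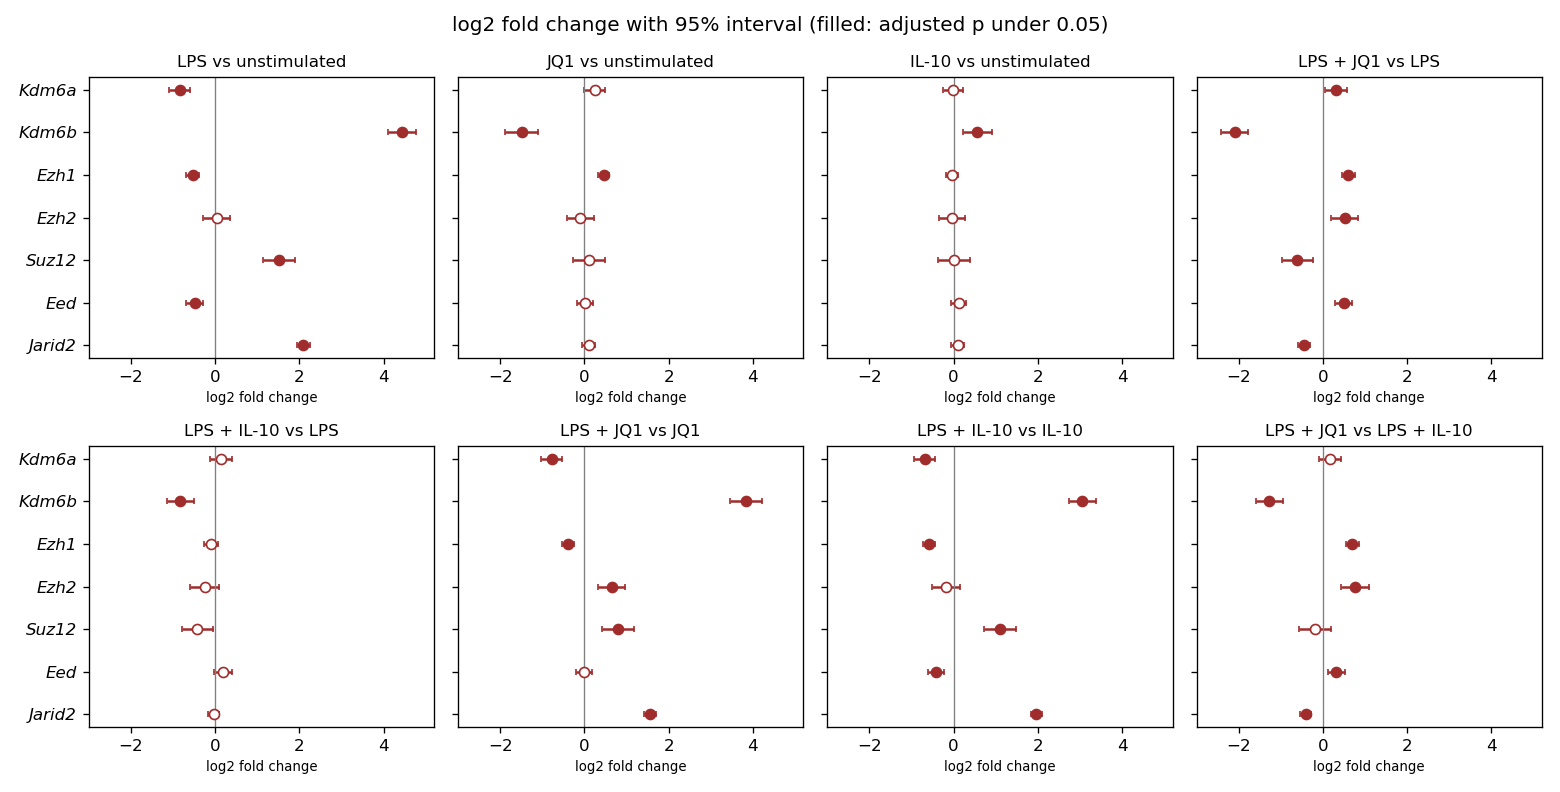
log2 fold change of each gene with its 95% interval in the 8 pairwise comparisons; filled points have an adjusted p under 0.05 in the DESeq2 Wald test. Kdm6b has the largest change in every panel, from 4.44 with LPS to -2.10 with JQ1 on top of LPS.

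Suz12 had 789, 866 and 762 normalised counts in LPS + JQ1, below the 971 to 1605 of LPS (log2 -0.61, SE 0.19, adjusted p = 0.00312). Without LPS replicate 3 the log2 change was -0.37 with an adjusted p of 0.0738, and under total-count scaling it was -0.23 with an adjusted p of 0.322, the alternatives spanning 0.000251 to 0.322. Jarid2 had 1840, 1911 and 1993 normalised counts, below the 2601 to 2632 of LPS (log2 -0.45, SE 0.07, adjusted p = 2.66e-10), but with total-count scaling the log2 change was -0.07 with an adjusted p of 0.399, the highest over all alternatives. Total-count scaling moved the median of all expressed genes in this comparison from -0.10 to 0.28 and the share of called genes that were higher from 43.0% to 65.2%.

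The other 4 genes were higher in LPS + JQ1 than in LPS. Ezh1 had 987, 995 and 939 normalised counts against 584 to 686 (log2 0.60, SE 0.08, adjusted p = 3.97e-14), which overlaps the level of unstimulated cells. Ezh2 had 165, 190 and 177 against 119 to 127 (log2 0.51, SE 0.16, adjusted p = 0.00373), a call lost without replicate 1 or replicate 2 of every group (adjusted p up to 0.0990). Eed had 296, 286 and 305 against 192 to 219 (log2 0.49, SE 0.11, adjusted p = 8.72e-06). Kdm6a had 318, 418 and 313 against 259 to 325, which overlap, and its call (log2 0.31, SE 0.13, adjusted p = 0.0370) was lost without LPS replicate 1 (adjusted p = 0.145), LPS replicate 2 (adjusted p = 0.143) or LPS + JQ1 replicate 2 (log2 0.16, adjusted p = 0.320), within alternatives from 3.68e-06 to 0.613. The Ezh2 to Ezh1 ratio in LPS + JQ1, 0.272 to 0.311, overlapped that of LPS, 0.294 to 0.353 (exact permutation p = 0.6).

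Of the 14 genes of dividing cells, 12 were lower and 1 higher in LPS + JQ1 than in LPS, while Ezh2 was higher. Among those with a mean of at least 50 normalised counts, Mki67 (log2 -3.24), Mcm5 (log2 -2.64) and Ccna2 (log2 -2.28) changed most. Aurkb, under that minimum, averaged 12.3 normalised counts with LPS and 0.778 in LPS + JQ1. Of 10 PRC2 partners 2 were higher and 3 lower, with Phf1 (log2 1.19, adjusted p = 2.11e-11) and Lcorl (log2 0.89, adjusted p = 0.000663) higher and Aebp2 lower (log2 -0.89, adjusted p = 7.79e-26), while 5 were higher and 1 lower with total-count scaling. Of 24 PRC1 subunits 11 were higher and 7 lower, against 14 and 4 with total-count scaling. Cbx2 had 42.0 to 52.9 and Cbx8 23.2 to 25.9 normalised counts, above their few counts in LPS, and Kdm2b, the CpG-binding subunit of a variant PRC1, was higher by log2 1.59 (adjusted p = 3.91e-60). Of 5 PR-DUB subunits 2 were higher (Foxk1, log2 0.79; Asxl2, log2 0.51) and 2 lower, among them Bap1, the deubiquitinase, whose fall (log2 -0.39) was not called under total-count scaling. Of 9 MLL3/MLL4 genes 3 were higher, Paxip1 (log2 0.61) and Pagr1a (log2 0.43) among them, and 2 lower, led by Ncoa6 (log2 -0.98), against 7 and 1 with total-count scaling.

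IL-10 before LPS changed 1 of the 7 genes, where 15.7% of 12407 genes tested were called. Kdm6b had 2680, 2063 and 1549 normalised counts, below the 3068 to 4168 of LPS (1.77-fold lower, log2 -0.83, SE 0.16, adjusted p = 6.60e-06), with replicate 3 lowest in both groups. The call held in all fits without a replicate or a library (log2 -1.04 to -0.64, adjusted p up to 0.0100). Suz12, at 903, 664 and 1173, overlapped LPS and was not called (log2 -0.42, SE 0.19, adjusted p = 0.127), but was called without LPS + IL-10 replicate 3 (log2 -0.64, adjusted p = 0.00534) or without LPS replicate 2 (log2 -0.57, adjusted p = 0.0346), the alternatives running from 0.00534 to 0.615. Eed, at 229, 239 and 244, lay above all LPS libraries without a call (log2 0.18, 95% interval -0.04 to 0.39, adjusted p = 0.325), although limma on log2(TPM + 1) called it (log2 0.26, adjusted p = 0.0415). Jarid2, at 2569, 2721 and 2374, overlapped LPS, and Ezh2 ranged from 74.5 to 124 normalised counts. Total-count scaling moved the share of called genes that were higher from 48.9% to 71.1%.

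The response to LPS was also present in pretreated cells. Against JQ1 alone, LPS + JQ1 cells had 6 of 7 genes called (background 57.1%): besides Kdm6b, Jarid2 (log2 1.55), Suz12 (log2 0.80) and Ezh2 (log2 0.64) were higher and Kdm6a (log2 -0.77) and Ezh1 (log2 -0.39) lower, while Eed was not called (log2 -0.01, 95% interval -0.19 to 0.18) but was lower under total-count scaling (log2 -0.38). The Ezh2 and Suz12 calls were lost under total-count scaling (adjusted p = 0.147 and 0.0504), which moved the share of all called genes that were higher from 47.2% to 25.7%. Against IL-10 alone, LPS + IL-10 cells also had 6 of 7 called (background 62.5%): Kdm6b (log2 3.06), Jarid2 (log2 1.964) and Suz12 (log2 1.10, lost under total-count scaling with an adjusted p of 0.215) were higher, and Kdm6a (log2 -0.69), Ezh1 (log2 -0.59) and Eed (log2 -0.43) lower, while Ezh2 was not called (log2 -0.18) but was lower under total-count scaling (log2 -1.01), where 21.0% rather than 49.3% of all called genes were higher. Between the pretreatments, LPS + JQ1 differed from LPS + IL-10 in 5 of 7 genes (background 55.3%), with lower Kdm6b (log2 -1.27) and Jarid2 (log2 -0.41, lost under total-count scaling) and higher Ezh2 (log2 0.76), Ezh1 (log2 0.70) and Eed (log2 0.31, lost without replicate 1, 2 or 3 of every group, with adjusted p up to 0.148). Here 43.4% of called genes were higher, and 61.6% under total-count scaling.

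Whether a pretreatment changed the LPS response was tested by the interaction, the LPS effect with the pretreatment minus that without it. For JQ1, 5 of 7 genes were called, where 40.3% of 13046 genes were: the response was smaller for Jarid2 (log2 -0.55, SE 0.10, adjusted p = 8.90e-07), Suz12 (log2 -0.71, SE 0.27, adjusted p = 0.0241) and Kdm6b (log2 -0.60, SE 0.26, adjusted p = 0.0471), and shifted upward for Eed (log2 0.48, SE 0.14, adjusted p = 0.00256) and Ezh2 (log2 0.61, SE 0.23, adjusted p = 0.0240). Under total-count scaling the Jarid2 value was 0.01, and the Suz12 and Kdm6b calls were also lost, with adjusted p of 0.662 and 0.885, while Ezh1 (log2 0.70, adjusted p = 2.11e-10) and Kdm6a (log2 0.62, adjusted p = 0.00344) gained calls and the share of all called genes that were higher moved from 42.8% to 85.6%. Ezh1, not called in DESeq2 with its own size factors (log2 0.15, adjusted p = 0.277), was also called with edgeR (adjusted p = 0.0496) and limma on log2(TPM + 1) (adjusted p = 9.50e-05). Kdm6b was also lost with edgeR (adjusted p = 0.130) and in 8 of the fits without 1 library, and Suz12 with edgeR (adjusted p = 0.0703) and without LPS replicate 3 (log2 -0.47, adjusted p = 0.120). For IL-10, 1 of 7 was called, where 6.6% of 12087 genes were: the Kdm6b response was smaller (log2 -1.38, SE 0.24, adjusted p = 7.31e-07). Of all genes called 54.1% were higher, and 73.7% under total-count scaling.

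Taking the demethylase against both methyltransferases, Kdm6b TPM divided by the sum of Ezh1 and Ezh2 TPM was 0.0889 to 0.0973 at rest, 0.0216 to 0.0290 with JQ1 and 0.139 to 0.149 with IL-10. It was 2.42 to 2.90 with LPS, so Kdm6b transcripts outnumbered those of both enzymes together in all 3 LPS libraries, as they did in LPS + IL-10 (1.19 to 2.22). In LPS + JQ1 the ratio was 0.391 to 0.486, below 1 in all 3 libraries. The 3 LPS-stimulated groups did not overlap one another (exact permutation p = 0.1 each, 0.133 adjusted over 24 ratio tests). The Kdm6b to Kdm6a ratio did overlap between LPS + IL-10 (3.79 to 8.49) and LPS (8.38 to 14.3, exact permutation p = 0.2). In LPS + JQ1 that ratio, 1.74 to 2.72, lay below both.

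**Figure D4:**
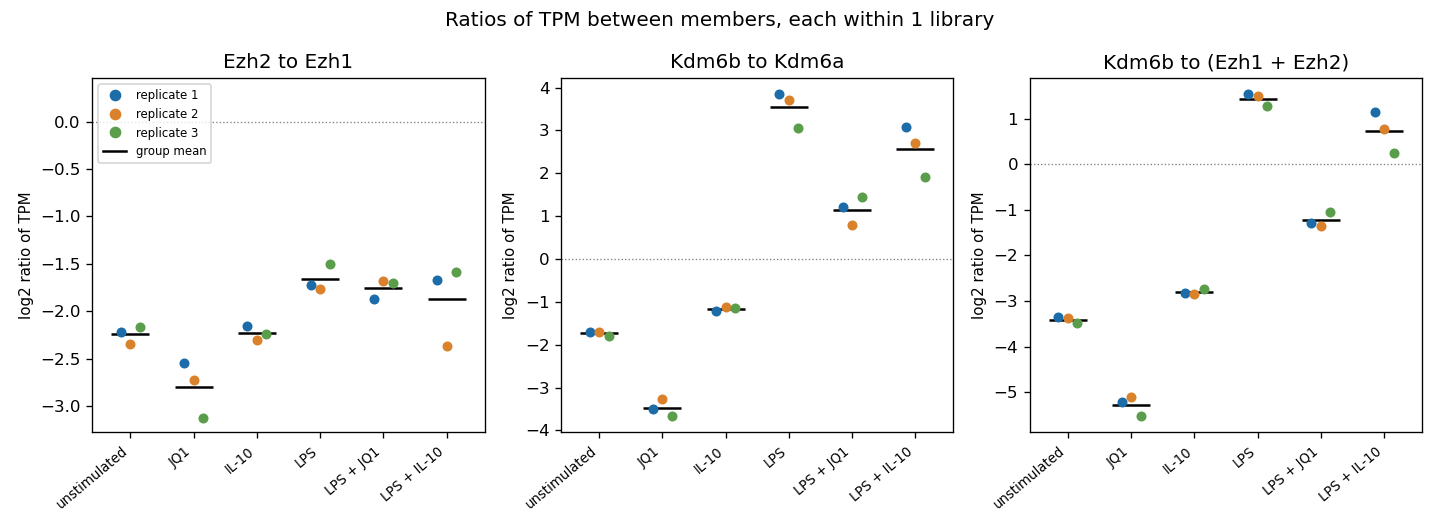
log2 ratio of TPM within each library for Ezh2 to Ezh1, Kdm6b to Kdm6a, and Kdm6b to the sum of Ezh1 and Ezh2; points are libraries, bars group means of 3 and the dotted line equal levels. The third panel crosses the dotted line for LPS and LPS + IL-10 but not for LPS + JQ1 (0.391 to 0.486 as a ratio).

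Among 8371 genes with a mean of at least 100 normalised counts, those nearest to each member in the pattern of the 6 group means were found by the root mean square (RMS) difference of centred log2 means. For Kdm6b these were Zhx2 (RMS 0.21), Adora2b (0.30) and Sp110 (0.34), a looser match than for the others. Jarid2 was nearest to Psma3 (0.07), Eif1a (0.08) and P4ha1 (0.08), and Suz12 to Stk4 and Mbnl2 (0.07 and 0.07). Ezh1 was nearest to Pigs (0.03), Nnt (0.04) and March8 (0.04), and Kdm6a to Bcas3, Abcc3 and Rufy2 (0.04, 0.05 and 0.05). Zhx2, for instance, averaged 132 normalised counts at rest, 31.6 with JQ1 and 134 with IL-10. After stimulation it averaged 1765 with LPS, 498 in LPS + JQ1 and 1212 in LPS + IL-10. The rise of Kdm6b with IL-10 alone (log2 0.56) was not matched by these neighbours. Over unstimulated cells their log2 values there were 0.02 for Zhx2, -0.32 for Adora2b and 0.10 for Sp110. Ezh2 and Eed, whose group means spanned under 1 log2 unit (0.79 and 0.61), were not matched.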

How the data were processed

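RNA was sequenced from 18 BMDM libraries in 6 groups of 3. Libraries were made with a stranded, ribosome-depleting kit, and per the labels and the study's methods reads were aligned with STAR to mm9 and quantified with RSEM 1.2.31. The authors deposited expected counts, TPM, FPKM and transcript lengths per gene; FPKM was not used, and lengths were only inspected. RSEM's default takes no account of strand, so reads from an antisense gene could not be told apart. Expected counts were rounded and tested with DESeq2 1.42.0 (R 4.3.3; group only, all 18 libraries, default independent filtering, adjusted p under 0.05). The alternatives were edgeR 4.0.16 with TMM, total-count scaling, limma 3.58.1 on log2(TPM + 1) or log2(TPM + 0.1), a filter of at least 10 counts in at least 3 libraries, no independent filtering, an effective-length offset, replicate block, lane, only the groups compared, and leaving out a replicate or a library. Scripts were tested on simulated data. Intervals cover 95%.

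Replicate numbers come from the sample titles, and the sources used here do not tie a number to a mouse, so the main test used no pairing. The lane is that named in the labels: replicate 1 ran on lane 7, replicate 3 on lane 8, and replicate 2 on 7 without LPS and 8 with it. No 2 replicates agreed within sampling noise, and the disagreement was uneven. The chi-square per degree of freedom was 26.1 and 30.5 for pairs with LPS replicate 3. It was 30.0 and 28.8 for pairs with LPS + IL-10 replicate 3, and from 4.14 to 11.2 for all other pairs. Depth was 6.78e+06 to 2.83e+07 expected counts per library, and 3 counts, the limit that a count of 0 allows, corresponded to 0.106 to 0.442 CPM.

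The 7 genes and the gene lists were chosen with earlier results of these data known. Named genes were the 7 members, up to 3 called genes of each list with the largest change and a mean of at least 50 normalised counts (for LPS or JQ1 against unstimulated and LPS + JQ1 against LPS), and the 3 nearest patterns for members spanning at least 1 log2 unit. Of these, 1 gene is not reported here. Of the PRC2 partners listed, 10 of 11 were in the files, Uty among them. Promoter sequences are from RefSeq (GRCm38.p6), and the motifs were chosen after matches had been seen.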

Additional observations from a re-analysis of the deposited data

Results flagged for a closer look

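The LPS response differed between pretreated and untreated cells, by the interaction test in DESeq2, for 5 of the 7 genes with JQ1 and 1 with IL-10. Over all genes tested, 40.3% were called with JQ1 and 6.6% with IL-10. Under total-count scaling the JQ1 calls of Jarid2, Suz12 and Kdm6b were lost (DESeq2 adjusted p = 0.974, 0.662 and 0.885). Those of Eed and Ezh2 held, and Ezh1 and Kdm6a gained a call. With JQ1 the log2 difference was -0.60 for Kdm6b, 0.61 for Ezh2, -0.71 for Suz12, 0.48 for Eed and -0.55 for Jarid2, and with IL-10 it was -1.38 for Kdm6b. Over the fits that left out a replicate or a library, the adjusted p ran from 0.00112 to 0.335 for Kdm6b with JQ1, from 0.0164 to 0.272 for Ezh2, from 0.00554 to 0.148 for Suz12, from 0.00175 to 0.114 for Eed and from 1.18e-06 to 0.00640 for Jarid2, and from 3.36e-12 to 0.00144 for Kdm6b with IL-10. Leaving out libraries or replicates left 1 to 4 members called in the JQ1 interaction, and 1 or 2 without a whole replicate.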

How the results depend on the processing

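Of the member values under alternatives other than leaving libraries out, 691 kept their direction and their side of the threshold, 28 lost and 16 gained the call, and 35 changed sign; over leave-outs the counts were 634, 46, 4 and 30. The replicate block changed no member's call in any comparison: it called 6 members for LPS, 2 for JQ1, 1 for IL-10, 7 for LPS + JQ1 against LPS and 1 for LPS + IL-10 against LPS, as without it. With the sequencing lane added, the block lost the Kdm6a call in LPS + JQ1 against LPS (adjusted p = 0.0600). As a check of pairing, deviations from the group means of same-numbered libraries had mean correlations from -0.03 to 0.24 over the 8 pairwise comparisons, every pair exceeded 0.1 in 1 of them (LPS + IL-10 against LPS), and 1 to 6 of 6 libraries correlated best with their own number, which is a hint from the data and not the design.

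Sign changes were mostly of small values, and their cause was not tested. For LPS, Ezh2 was -0.028 with edgeR, -0.90 with total-count scaling, and -0.62 and -0.73 with limma (pseudocounts 1 and 0.1). In the same order of the last 3 settings, JQ1 alone gave -0.070, -0.0865 and -0.092 for Suz12, -0.17, -0.18 and -0.19 for Eed, and -0.079, -0.083 and -0.088 for Jarid2. LPS + IL-10 against LPS gave 0.060, 0.078 and 0.080 for Jarid2, LPS + JQ1 against LPS + IL-10 gave 0.097, 0.048 and 0.052 for Suz12, and the IL-10 interaction gave 0.046, 0.014 and 0.0144 for Ezh1. With limma alone, IL-10 gave 0.024 and 0.025 for Kdm6a, 0.011 and 0.012 for Ezh2 and 0.046 and 0.049 for Suz12, and LPS + IL-10 against LPS gave 0.012 and 0.013 for Ezh1. Suz12 with IL-10 was 0.015 with the replicate block and 0.0089 with block and lane. Eed in LPS + JQ1 against JQ1 was 0.042 with edgeR and 0.053 with only the groups compared. Jarid2 in the JQ1 interaction was 0.0053 with total-count scaling.

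Leaving out a replicate or a library gave ranges that crossed 0 for Ezh2 (-0.20 to 0.058) and Eed (-0.036 to 0.063) with JQ1, for Kdm6a (-0.095 to 0.052), Ezh2 (-0.13 to 0.029) and Suz12 (-0.10 to 0.18) with IL-10, for Kdm6a (-0.0012 to 0.26) and Jarid2 (-0.083 to 0.025) in LPS + IL-10 against LPS, for Eed in LPS + JQ1 against JQ1 (-0.052 to 0.049), for Kdm6a (-0.029 to 0.39) and Suz12 (-0.42 to 0.080) in LPS + JQ1 against LPS + IL-10, for Kdm6a in the JQ1 interaction (-0.16 to 0.26), and for Ezh1 (-0.14 to 0.088) and Eed (-0.031 to 0.15) in the IL-10 interaction.

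The count of members called with IL-10 alone was 0 with edgeR, with limma at either pseudocount and without independent filtering, and 0 to 1 over leave-outs. For LPS + IL-10 against LPS it was 2 with limma at either pseudocount and 1 to 2 over leave-outs, and for the JQ1 interaction 1 to 4 over leave-outs. Adding 1 to each TPM changed the log2 ratio of Kdm6b to Kdm6a against unstimulated to 4.74 for LPS, 2.53 for LPS + JQ1, -1.17 for JQ1, 0.47 for IL-10 and 3.84 for LPS + IL-10, and that of Kdm6b to both methyltransferases to 4.48, 1.93, -1.29, 0.49 and 3.79. With nothing added to TPM, the log2 ratio of Kdm6b to both methyltransferases against unstimulated ran over leave-outs from 2.04 to 2.26 for LPS + JQ1 and from 0.53 to 0.64 for IL-10.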
